A study of Mus musculus with 12 samples.

Results

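A set of 10 genes of T cells and cytotoxic lymphocytes was followed through the colonic tissue of mice with dextran sodium sulfate (DSS) colitis. They were the CD3 chain genes Cd3d, Cd3e and Cd3g, the coreceptor genes Cd4, Cd8a and Cd8b1, the transcription factor gene Foxp3, the integrin gene Itgae, and the granzyme genes Gzma and Gzmb. The genes were taken by symbol from the count table, which held 54532 genes, and all 10 were among the 16904 that passed the filter on low counts. RNA-Seq covered 12 libraries from the colon of 5-week-old male C57BL/6J mice labelled WT, with 3 libraries in each of 4 groups. The control group received no DSS. The model group received DSS, which damages the lining of the colon. The Rhy group received DSS and rhynchophylline (Rhy), an alkaloid of the plant Uncaria rhynchophylla, at 2, 4 or 8 mg/kg, and the labels do not say which of these doses the sequenced mice had. The DXM group received DSS and dexamethasone (DXM), a synthetic glucocorticoid, at 4 mg/kg. The comparisons asked how DSS altered these transcripts in the colon and how Rhy or DXM altered them in mice on DSS. The libraries were of whole colon pieces, so fewer cells of a type and less RNA per cell cannot be told apart in any value given here.

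The CD3 chains form the signalling part of the T cell receptor and are found on nearly all T cells. CD4 and CD8 are the coreceptors that read MHC class II and class I. Conventional cytotoxic T cells carry a CD8 dimer of an alpha and a beta chain, while many T cells that sit within the gut epithelium carry a dimer of alpha chains. The integrin chain CD103, made from Itgae, pairs with the chain from Itgb7 and binds E-cadherin on epithelial cells. Granzymes are proteases that cytotoxic T cells and NK cells release into target cells, and Foxp3 defines regulatory T cells.

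The total count per library was 14346478 to 17749716. Values below are CPM, read counts relative to the library size after TMM scaling, and folds and tests come from edgeR's quasi-likelihood test with Benjamini-Hochberg adjustment over all 16904 genes tested. Model 1 and model 2 stood apart as near copies of each other. Their common dispersion (the squared coefficient of variation between libraries beyond counting noise) was 0.00201, against 0.0606 to 0.353 in the other 65 pairs. Hoxb13, which marks the distal colon, was at 0.165, 1.49 and 0 CPM in control 3, model 3 and Rhy 1 and at 72.0 to 317 CPM in the other libraries. The 16 genes of a B cell and follicle list summed to 26.5 CPM in control 3 and 11.9 CPM in Rhy 1, and to 205 to 371 CPM elsewhere. The epithelial list, which checks the labelled tissue, summed to 20750 to 44290 CPM. Each of the 10 genes had at least 4 reads in every library, and the T cell genes were thus detected in all 12 pieces. The labels name the libraries of a group as separate samples and do not say how they were taken, so p-values measure the spread between these libraries, which may be technical.

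None of the 10 genes passed the test in any comparison. In DSS colitis, 9 of them had a lower mean than the control, by amounts well within the spread. With Rhy, all 10 were lower than in the model group. Cd3e was the gene whose libraries did not overlap, and 6.02% of all genes were lower in every Rhy library. With DXM, the granzymes and Cd8a were lower than in every model library, as were 12.2% of all genes, while Cd8b1 was higher on average. Cd3e was lower on average with DXM, by -0.59 on the log2 scale, and Cd3d, Cd3g and Cd4 differed by 0.14, -0.17 and 0.32, with DXM and model libraries overlapping for each of these genes. The same gene often differed widely between the 3 libraries of a group.

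Relative to transcript length, the granzymes led. The deposited FPKM values, which divide counts by gene length and depth, averaged 9.03 ± 7.35 (SD, n = 12) for Gzma and 3.15 ± 2.90 for Gzmb. Cd3d followed at 2.03, Cd3g at 1.83, Cd4 at 1.79, Cd8a at 0.950, Itgae at 0.772, Cd3e at 0.668, Cd8b1 at 0.482 and Foxp3 at 0.177 FPKM. Gzma was above Gzmb in 12 of 12 libraries. The other neighbours in this order changed places in at least 2 libraries each, and Cd3g was above Cd4 in 6 of 12, so those steps did not exceed the spread between libraries. Between its lowest and highest library, CPM differed 31.0-fold for Gzmb, 24.7-fold for Gzma and 18.1-fold for Cd4, but 3.63-fold for Cd3d and 3.12-fold for Cd3g.

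**Figure D1:**
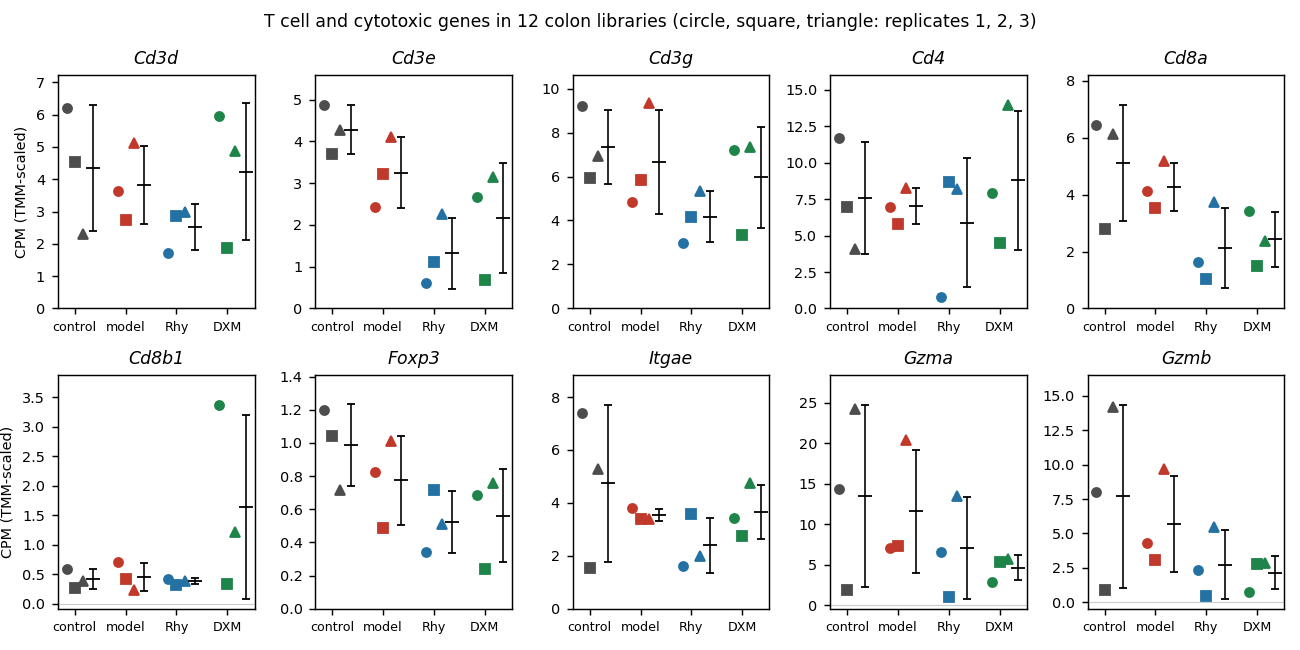
CPM of the 10 genes (vertical axis, a separate linear scale for each gene) by group (control, model, Rhy, DXM). Coloured points are libraries and the black bar beside them is the group mean ± SD (n = 3). Cd3e in the 3 Rhy libraries and Gzma, Gzmb and Cd8a in the 3 DXM libraries sit below all 3 model libraries. Of all genes, 6.02% do so with Rhy and 12.2% with DXM.

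Cd3d, Cd3e and Cd3g lie side by side on chromosome 9 in mm10 (GRCm38). Cd3g (ENSMUSG00000002033) spans 44969572 to 44980431 on the minus strand, Cd3d (ENSMUSG00000032094) spans 44981786 to 44987339 on the plus strand, and Cd3e (ENSMUSG00000032093) spans 44998740 to 45009627 on the minus strand. The gap between Cd3g and Cd3d is 1354 bases. In GENCODE M21 a pair of non-coding genes, Gm48719 and Gm48720, overlap Cd3e, and the sources do not say whether strand was used in counting.

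Cd3e had 4.87, 3.69 and 4.28 CPM in the 3 control libraries. Model libraries had 2.43, 3.22 and 4.11 CPM, Rhy libraries 0.599, 1.11 and 2.26 CPM and DXM libraries 2.67, 0.675 and 3.14 CPM. The 3 Rhy libraries lay below the 3 model libraries, with a narrow gap between Rhy 3 and model 1, while the model range overlapped those of the control and DXM groups. Against the model group, Cd3e was lower with Rhy by a log2 fold change of -1.27 ± 0.57 (SE), with p = 0.047 before adjustment and an adjusted p of 0.9997 in edgeR, and an exact permutation p of 0.1, the smallest that 3 against 3 libraries can give. Without Rhy 1 the value was -0.94, without Rhy 3 it was -1.90, and the unadjusted p ranged from 0.012 to 0.141 as single libraries were left out. The change was -0.40 ± 0.55 for the model against the control and -0.59 ± 0.56 for DXM against the model.

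Cd3g, the steadiest of the 10 genes, had 9.21, 5.91 and 6.92 CPM in the 3 control libraries. Model libraries had 4.85, 5.83 and 9.35 CPM, Rhy libraries 2.996, 4.18 and 5.32 CPM and DXM libraries 7.20, 3.33 and 7.34 CPM. Rhy 1 was the lowest library and DXM 2 the next, and every group overlapped the model group. The log2 fold change was -0.67 ± 0.38 with Rhy, -0.17 ± 0.38 with DXM and -0.14 ± 0.38 for the model against the control. Without model 3 it was -0.32 with Rhy and turned to 0.17 with DXM.

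Cd3d had 6.22, 4.52 and 2.31 CPM in the 3 control libraries. Model libraries had 3.64, 2.73 and 5.12 CPM, Rhy libraries 1.71, 2.87 and 2.999 CPM and DXM libraries 5.97, 1.88 and 4.86 CPM. As with the other CD3 chains, Rhy 1 and DXM 2 were low, and control 3 was low as well. Cd3d had a log2 fold change of -0.59 ± 0.49 with Rhy, 0.14 ± 0.48 with DXM and -0.18 ± 0.49 for the model against the control. Without model 3 the Rhy value was -0.30, and without Rhy 1 it was -0.38. The 3 chains moved with each other across libraries. With model 1 and model 2 averaged, which leaves 11 samples, Pearson's r of log2 CPM was 0.936 (Spearman's rho 0.836) for Cd3e and Cd3g and 0.852 (rho 0.855) for Cd3d and Cd3g. These correlations are descriptions, since the values of a library share its depth and its piece of colon.

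Cd4 (ENSMUSG00000023274; chromosome 6, 124864692 to 124888221, minus strand) had the widest range of the T cell genes. It had 11.7, 6.95 and 4.06 CPM in the 3 control libraries. Model libraries had 6.95, 5.83 and 8.28 CPM, Rhy libraries 0.771, 8.69 and 8.21 CPM and DXM libraries 7.95, 4.48 and 13.9 CPM. Rhy 1, with 9 reads, was far below the other 11 libraries, while Rhy 2 was just above the highest model library and Rhy 3 just under it. The log2 fold change with Rhy was -0.24 ± 0.68, and it turned to 0.27 without Rhy 1. With DXM it was 0.32 ± 0.67, which turned to -0.18 without DXM 3, and for the model against the control it was -0.10 ± 0.68, which turned to 0.35 without control 1.

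Cd8a (ENSMUSG00000053977; chromosome 6, 71373427 to 71379173, plus strand) had 6.44, 2.78 and 6.15 CPM in the 3 control libraries. Model libraries had 4.14, 3.52 and 5.18 CPM, Rhy libraries 1.63, 1.05 and 3.74 CPM and DXM libraries 3.43, 1.49 and 2.38 CPM. All 3 DXM libraries and Rhy 1 and Rhy 2 were below all 3 model libraries, and Rhy 3 was within the model range. DXM 1 was just under model 2. The log2 fold change was -0.82 ± 0.50 with DXM (adjusted p = 0.690 in edgeR, exact permutation p = 0.1, the smallest possible) and -0.99 ± 0.51 with Rhy (adjusted p = 0.9997), which was -1.68 without Rhy 3 and -0.66 without Rhy 2. It was -0.26 ± 0.50 for the model against the control.

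Cd8b1, the beta chain gene, lies 35932 bases before Cd8a on the same strand (ENSMUSG00000053044; chromosome 6, 71322788 to 71337494) and followed another pattern. Control libraries had 0.599, 0.278 and 0.384 CPM, model libraries 0.717, 0.425 and 0.238 CPM and Rhy libraries 0.428, 0.327 and 0.396 CPM. These 9 libraries held 4 to 13 reads each. The DXM libraries had 3.36, 0.337 and 1.22 CPM, from 49, 7 and 24 reads. DXM 1 and DXM 3 were above all other libraries and DXM 2 was within the range of the rest, so that the DXM and model groups overlapped. Cd8b1 passed the filter on low counts through DXM 1 and DXM 3, in which it was high, and model 1, with 13 reads. It did not pass in the fits of model and control alone or of Rhy and model alone. Its unadjusted p with DXM is therefore not independent support. The log2 fold change against the model group was 1.79 ± 0.74, with p = 0.0317 before adjustment and an adjusted p of 0.637 in edgeR, and the exact permutation p was 0.3. It was 0.74 without DXM 1. The change with Rhy was -0.27 ± 0.78.

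The ratio of the chains followed from both. Per length, log2 of Cd8b1 to Cd8a was -2.18 ± 0.39 (SD, n = 3) in the control group, -1.95 ± 0.93 in the model group, -0.89 ± 0.84 in the Rhy group and 0.28 ± 1.02 in the DXM group. The beta chain was above the alpha chain per length in DXM 1, by 2.40-fold, and in DXM 3, by 1.27-fold, and was below it in the other 10 libraries. The DXM libraries did not overlap the model libraries, with a difference of 2.23 on the log2 scale and an exact permutation p of 0.1. The log2 ratio of Cd8a to Cd4 per length was -0.56 ± 0.04 in the model group, since all 3 model libraries lay between -0.60 and -0.52, model 1 and model 2 being near copies, and -1.62 ± 0.69 in the DXM group, with values of -1.06, -1.42 and -2.39. That difference of -1.06 also gave p = 0.1 in the exact permutation test. In the Rhy group the values were 1.19, -2.87 and -0.98, the widest spread of any group. In the control group they were -0.71, -1.16 and 0.74. In all, 4 such ratios were compared in each of 3 comparisons, and none could reach a p under 0.1 with 3 libraries a group.

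**Figure D2:**
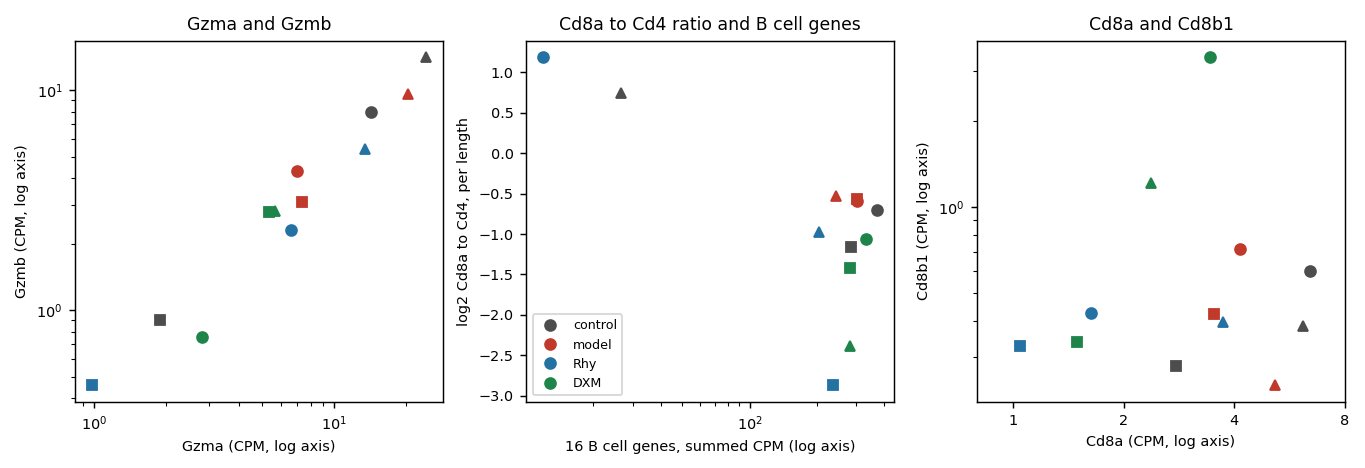
Pairs of measures in the 12 libraries, coloured by group, with circle, square and triangle for replicates 1, 2 and 3. Left, Gzma and Gzmb CPM on log axes lie along 1 line (r = 0.977 over 12 libraries). Middle, the log2 ratio of Cd8a to Cd4 per length is above 0 in Rhy 1 and control 3, which have the lowest summed CPM of 16 B cell genes (log axis). Right, Cd8a and Cd8b1 CPM on log axes, where DXM 1 and DXM 3 have the highest Cd8b1.

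Foxp3 (ENSMUSG00000039521; X chromosome, 7579676 to 7595243, plus strand) had the lowest mean level per length of the 10 genes, from 4 to 17 reads a library. Control libraries had 1.20, 1.04 and 0.714 CPM, model libraries 0.827, 0.485 and 1.01 CPM, Rhy libraries 0.342, 0.718 and 0.509 CPM and DXM libraries 0.686, 0.241 and 0.760 CPM. All groups overlapped the model group. Foxp3 differed by -0.55 ± 0.55 with Rhy, -0.47 ± 0.55 with DXM and -0.34 ± 0.54 for the model against the control on the log2 scale, each smaller than its SE. Relative to the mean of the CD3 chains per length, log2 Foxp3 was -2.90 ± 0.18 in the control group, -3.06 ± 0.37 in the model group, -2.86 ± 0.39 in the Rhy group and -3.43 ± 0.13 in the DXM group. The exact permutation p of this ratio was 0.5 for the model against the control, 0.5 with Rhy and 0.2 with DXM. GENCODE M21 places a longer Foxp3 gene, from 7573644, and 3 other genes overlap it, among them the protein-coding Ccdc22 on the opposite strand.

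Itgae (ENSMUSG00000005947; chromosome 11, 73090583 to 73147446, plus strand) had 7.41, 1.53 and 5.27 CPM in the 3 control libraries. Model libraries had 3.81, 3.40 and 3.40 CPM, Rhy libraries 1.63, 3.59 and 1.98 CPM and DXM libraries 3.43, 2.75 and 4.76 CPM. The control group held both the highest and the lowest library, and the model libraries were nearly level. Its log2 fold change was -0.55 ± 0.51 with Rhy, 0.05 ± 0.50 with DXM and -0.42 ± 0.50 for the model against the control. The gene Haspin lies within Itgae on the opposite strand. Per length, log2 Itgae relative to the CD3 mean was -1.11, -1.06, -0.96 and -0.87 in the groups taken in that order, control first and DXM last, with SDs of 0.46 to 1.08 (n = 3). Its partner Itgb7 had 12.8 ± 4.1, 9.12 ± 1.42, 7.69 ± 4.81 and 15.8 ± 5.9 CPM (SD, n = 3) in the same order, with a log2 fold change of 0.79 ± 0.46 for DXM against the model (adjusted p = 0.684 in edgeR). Cdh1, which encodes E-cadherin, had 547 to 1058 CPM in all libraries.

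Gzma (ENSMUSG00000023132; chromosome 13, 113093825 to 113100981, minus strand) had 14.3, 1.88 and 24.2 CPM in the 3 control libraries. Model libraries had 7.01, 7.34 and 20.4 CPM, Rhy libraries 6.59, 0.980 and 13.5 CPM and DXM libraries 2.81, 5.35 and 5.67 CPM. The control libraries alone covered nearly the whole range of the series. All 3 DXM libraries were below the model libraries, and the Rhy libraries lay on both sides of model 1 and model 2. Gzma had a log2 fold change of -1.32 ± 0.89 with DXM (adjusted p = 0.715 in edgeR, exact permutation p = 0.1, the smallest possible), -0.71 ± 0.88 with Rhy and -0.22 ± 0.87 for the model against the control.

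Gzmb (ENSMUSG00000015437; chromosome 14, 56258838 to 56262260, minus strand) had 8.01, 0.904 and 14.2 CPM in the 3 control libraries. Model libraries had 4.30, 3.09 and 9.65 CPM, Rhy libraries 2.31, 0.457 and 5.43 CPM and DXM libraries 0.754, 2.80 and 2.84 CPM. The order of the libraries was nearly that of Gzma, with control 3 and model 3 highest and Rhy 2 lowest. Gzmb had a log2 fold change of -1.40 ± 0.94 with DXM (adjusted p = 0.713 in edgeR, exact permutation p = 0.1), -1.04 ± 0.93 with Rhy and -0.44 ± 0.91 for the model against the control. Control 3 and model 3 have little Hoxb13 and Rhy 1 has none, and Rhy 1 had 6.59 CPM of Gzma and 2.31 CPM of Gzmb. The cause of this spread was not tested. With a term for Hoxb13 under 5 CPM, the DXM values were -0.79 for Gzma and -0.91 for Gzmb. Without model 3 they were -0.62 and -0.77, and the Rhy values were 0.01 and -0.40. Without Rhy 3 the Rhy values were -1.63 and -2.06, and without Rhy 2 they were -0.20 and -0.54.

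The granzymes were the closest of the 45 pairs among the 10 genes, although they lie on different chromosomes. Pearson's r of log2 CPM was 0.977 over 12 libraries (rho 0.965). It was 0.977 within groups, and 0.980 over 11 samples with model 1 and model 2 averaged. It was 0.969 when the 2 samples farthest from the median of Gzma were left out. The ratio of Gzma to Gzmb reads stayed between 1.63 and 3.73 in libraries in which Gzma itself differed 24.7-fold. Both granzymes went with Cd8a (r = 0.751 for Gzma and 0.736 for Gzmb over 11 samples) while r was near 0 with Cd3d (-0.024 and -0.040) and Cd4 (-0.074 and -0.009). With Cd3e it was 0.403 for Gzma and 0.435 for Gzmb, and with Cd3g 0.410 and 0.418, and these rose to between 0.572 and 0.678 without the 2 farthest samples. With Foxp3, r was 0.858 for Cd3e, 0.844 for Cd3g and 0.817 for Cd3d, and without the 2 farthest samples it was 0.576, 0.619 and 0.848.

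The promoter sequences of the granzymes are shown because these genes moved together across libraries. RefSeq (GRCm38.p6) gave a promoter for 7 of the 10 genes. The 250 bases before the RefSeq start are printed 5′ to 3′ on the minus strand, in which both genes lie, for Gzma (chr13:113100982-113101231) and Gzmb (chr14:56262335-56262584). Capitals mark TGTGGT, the core that RUNX factors bind, read on both strands (ACCACA is the same word on the other strand), and TGANTCA, the core of AP-1 sites. The motifs do not overlap each other.
Gzma: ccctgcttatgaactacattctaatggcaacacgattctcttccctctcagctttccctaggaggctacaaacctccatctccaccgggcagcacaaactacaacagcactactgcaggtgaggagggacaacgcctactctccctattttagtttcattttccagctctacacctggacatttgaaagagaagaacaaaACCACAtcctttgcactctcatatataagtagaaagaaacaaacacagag
Gzmb: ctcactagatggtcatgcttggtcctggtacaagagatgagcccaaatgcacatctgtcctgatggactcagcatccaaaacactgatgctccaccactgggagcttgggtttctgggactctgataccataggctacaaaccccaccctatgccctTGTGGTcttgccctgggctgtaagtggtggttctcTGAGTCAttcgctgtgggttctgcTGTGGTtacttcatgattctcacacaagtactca
Gzma held 1 match to TGTGGT and none to TGANTCA, and Gzmb held 2 and 1. Cd3d, Cd3e, Cd3g, Cd8a and both Foxp3 entries held neither in the same window. Of all 32851 promoters of this length, 14.1% held TGTGGT and 6.75% held TGANTCA. A match is a description of the letters, and no binding was measured.

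**Figure D3:**
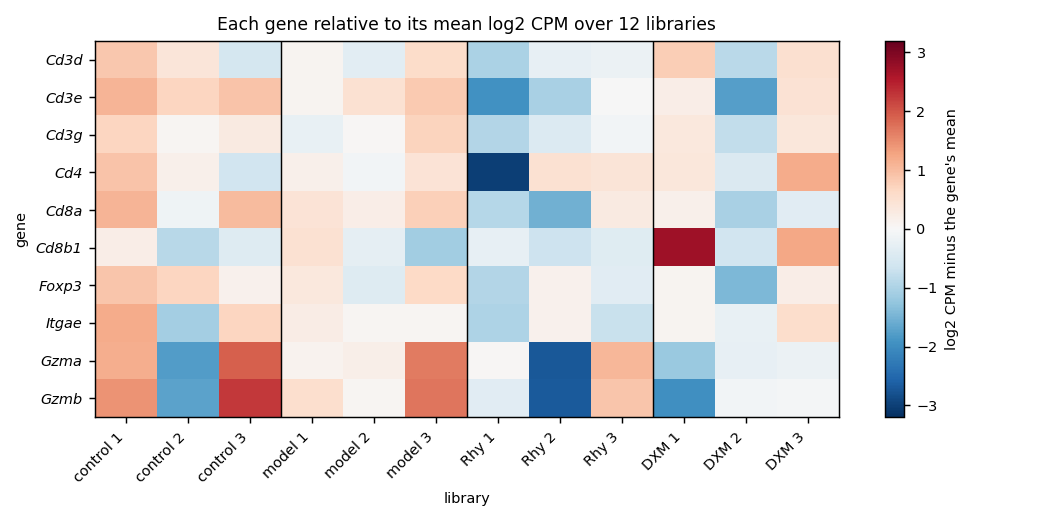
Log2 CPM of each gene (rows) minus that gene's mean over the 12 libraries (columns, by group), from blue (below the mean) to red (above). Gzma and Gzmb share their colours from library to library, Rhy 1 is low for the CD3 chains and Cd4, and Cd8b1 is high in DXM 1 and DXM 3.

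Between the model and control groups none of the 10 genes passed the test. Cd8b1 had a log2 fold change of 0.14 and the other 9 were below 0, from -0.44 for Gzmb to -0.10 for Cd4, with a median of -0.24 against 0.01 over all 16904 genes. None of the 10 had an unadjusted p under 0.05, where 1626 of all genes (9.62%) had one, and none had groups that did not overlap, where 10.4% of genes were higher in every model library and 6.61% lower. After adjustment edgeR called 0 genes (0%) in each of the 3 comparisons, with the smallest adjusted p at 0.459. DESeq2 called 46 genes for the model against the control. It gave none of the 10 an adjusted p in that comparison, so they could not be among those called. Without control 1 the median of the 10 was -0.01, with 5 genes higher and 5 lower. With model 1 and model 2 counted as 1 library, 2 were higher and 8 lower, with a median of -0.12. In this comparison Trdc, the constant segment of the delta receptor chain, had 4.57, 0.765 and 1.87 CPM in control and 0.883, 1.15 and 1.37 CPM in model libraries, so that the groups overlapped.

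Between the Rhy and model groups all 10 genes were lower with Rhy, from -1.27 for Cd3e to -0.24 for Cd4, with a median of -0.63 against -0.02 over all genes. One of the 10, Cd3e, had an unadjusted p under 0.05, against 628 of all genes (3.72%). It was also the 1 gene of the 10 with groups that did not overlap, where 6.02% of all genes were lower in every Rhy library and 5.51% higher. The adjusted p of each of the 10 was 0.9997 in edgeR, and DESeq2 called 5 genes, none of the 10. The direction held for all 10 in 13 of the 16 other fits that tested all 10 genes. One gene turned in the fits without model 1 (Cd8b1), without model 3 (Gzma) and without Rhy 1 (Cd4). Without Rhy 1 the median was -0.44, and without Rhy 3 it was -0.81. With model 1 and model 2 counted as 1 library all 10 were lower, with a median of -0.76, and none had an unadjusted p under 0.05.

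Between the DXM and model groups 4 of the 10 genes were higher and 6 lower, with a median of -0.32 against -0.02 over all genes. Cd8b1, Cd4, Cd3d and Itgae had log2 fold changes of 1.79, 0.32, 0.14 and 0.05, and Gzmb, Gzma and Cd8a had the lowest, at -1.40, -1.32 and -0.82. One gene, Cd8b1, had an unadjusted p under 0.05, against 1300 of all genes (7.69%). It passed the filter on low counts through DXM 1 and DXM 3, in which it was high, and model 1. Cd8a, Gzma and Gzmb were lower in every DXM library than in any model library, as were 12.2% of all genes, and none of the 10 was higher in this way, as were 10.4%. DESeq2 called 51 genes, none of the 10. With model 1 and model 2 counted as 1 library 4 were higher and 6 lower, with a median of -0.43, and Cd8b1 no longer had an unadjusted p under 0.05. The split depended on single libraries and on the Hoxb13 term. It was 1 higher and 9 lower with that term, 5 and 5 with a median of 0.01 without DXM 2, 5 and 5 with a median of -0.09 without model 3, and 2 and 8 with a median of -0.56 without DXM 3. All 3 comparisons share the model libraries, and a high or low model library enters each of them. In a fit of the DXM and model groups alone, 2514 of 16287 genes (15.4%) had an unadjusted p under 0.05. Gzma and Gzmb were among them, with adjusted p of 0.267 and 0.314 in edgeR, and Cd8b1 was not.

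**Figure D4:**
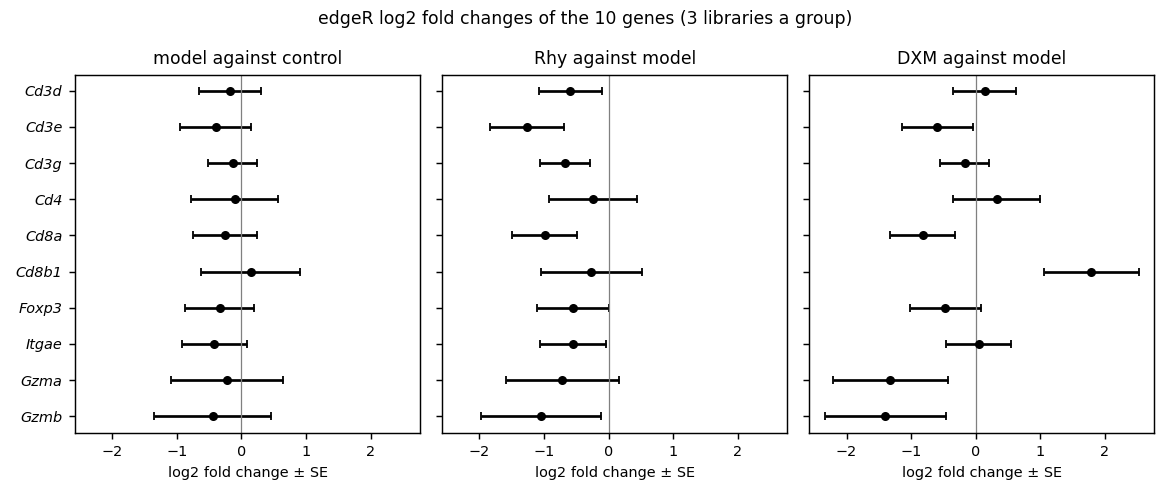
Log2 fold change ± SE (horizontal axis) from edgeR for each of the 10 genes in the 3 comparisons, 3 libraries a group. All 10 points are below 0 for Rhy against model, and Cd8b1 is at 1.79 while Gzma and Gzmb are at -1.32 and -1.40 for DXM against model.

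Wider lists of T cell genes, written from general knowledge, were read beside the 10. Of 28 genes of the T cell receptor and its signalling, all were tested. With Rhy, 26 of the 28 were lower and 2 higher, the median log2 fold change was -0.46, and 5 were lower in every Rhy library than in any model library, as were 6.02% of all genes. Lck, the kinase that starts receptor signalling, had 9.54, 10.4 and 11.1 CPM in model libraries against 3.25, 8.03 and 6.05 CPM with Rhy (log2 fold change -0.84 ± 0.35, adjusted p = 0.9997 in edgeR). Skap1, an adaptor of the same pathway that was chosen after its values were seen, differed by -1.18 ± 0.48. The zeta chain gene Cd247 had -0.65 ± 0.54 with Rhy, and the kinase gene Zap70 had -0.19 ± 0.47. Trac, the alpha constant segment, had 0.0856 CPM in Rhy 1 and 0.988 to 2.74 CPM in the other libraries. With control 3 and Rhy 1, which are low in B cell genes, left out together, 16 of the 28 were lower and 12 higher, with a median of -0.12, and 9 of the 10 T cell and cytotoxic genes were still lower, with a median of -0.44. This alternative was chosen after the data were examined.

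For the model against the control, 16 of the 28 were higher and 12 lower, with a median of 0.08. Without those libraries 3 were higher and 25 lower, with a median of -0.28. With DXM, 24 of the 28 were higher and 4 lower, with a median of 0.22, while among the 10 genes Cd3e, Cd3g, Cd8a, Foxp3 and the granzymes were lower. None of the 28 passed the test in any comparison. Trbc1 and Trbc2, the near-identical beta constant segments, had 0.257 to 9.87 and 2.48 to 15.2 CPM, and the counting could split their reads.

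Of 21 genes of cytotoxic effectors and NK cells, 13 were tested. Their median log2 fold change was -0.27 for the model against the control, -0.22 with Rhy and 0.16 with DXM. Of the 13, 8 were lower and 5 higher with Rhy, and 8 were higher and 5 lower with DXM. Ccl5, a chemokine of cytotoxic cells, was lower with DXM, at 8.91 ± 1.62 CPM in model and 4.10 ± 1.99 CPM in DXM libraries (SD, n = 3). Its log2 fold change was -1.13 ± 0.63, and it was lower in every DXM library, as were 12.2% of all genes. Its order across libraries was not that of the granzymes. Ccl5 was highest in control 1, at 28.6 CPM, against 9.28 CPM in control 3, where the granzymes were highest. Ccl5 was also below the model libraries in every Rhy library, at -0.74 ± 0.62, as were 6.02% of all genes. Nkg7, a granule protein gene, had -0.40 ± 0.63 with DXM and -0.78 ± 0.64 with Rhy. Other genes of the list were higher. Klrk1, which encodes the activating receptor NKG2D, had 0.827, 0.849 and 1.07 CPM in model, 1.03, 3.66 and 1.81 CPM in Rhy and 2.06, 1.21 and 1.82 CPM in DXM libraries. Its log2 fold change was 1.24 ± 0.49 with Rhy (adjusted p = 0.9997 in edgeR). It was the 1 gene of the list with an unadjusted p under 0.05 in that comparison, against 3.72% of all genes. With DXM it was at 0.88 ± 0.49 and higher in every DXM library, as were 10.4% of all genes. Gzmm and Ncr1 had 0.67 ± 0.60 and 0.36 ± 0.69 with Rhy and 0.22 ± 0.60 and 0.89 ± 0.68 with DXM. Eomes and Cst7 of the same list had -1.95 ± 1.11 and -1.34 ± 0.84 with Rhy and 0.02 ± 0.98 and -1.14 ± 0.83 with DXM. Klrk1, Gzmm, Ncr1, Eomes and Cst7 were chosen after their values were seen. The perforin gene Prf1 had at most 0.658 CPM, and Ifng at most 0.225 CPM, so that neither passed the filter.

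Of 15 regulatory T cell genes, 14 were tested, with medians of 0.09, -0.37 and 0.19 in the 3 comparisons. With Rhy, 11 of the 14 were lower and 3 higher. Tigit, an inhibitory receptor gene, had 0.607, 0.667 and 0.953 CPM in model libraries against 0, 0.0653 and 0.283 CPM with Rhy. Its Rhy libraries were all lower, as in 6.02% of all genes (adjusted p = 0.9997 in edgeR). Lrrc32 of the same list was higher, at 0.82 ± 0.47 with Rhy and 1.44 ± 0.47 with DXM. Ctla4, Il2ra and Ikzf2, which regulatory T cells also express, had log2 fold changes of -0.39 ± 0.69, -0.15 ± 0.57 and -0.08 ± 0.64 with Rhy. Of 19 T helper genes, 9 were tested, with medians of -0.27, 0.08 and 0.26. Il22, a cytokine that acts on the epithelium, had no read in any model library, while DXM libraries had 0.137, 1.49 and 1.77 CPM, Rhy libraries 0, 0.849 and 0.113 CPM and control libraries 0.150, 0.209 and 0 CPM. Tigit, Lrrc32 and Il22 were also chosen after their values were seen. Of 22 genes of epithelial homing and gamma-delta T cells, 21 were tested, with medians of -0.31, -0.03 and 0.12. The gut homing receptor gene Ccr9 had 0 to 1.35 CPM. Adjusted calls were 0 in each of these lists in edgeR.

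Some libraries stood at the low or high end for many of the genes. Rhy 1 was the lowest of 12 libraries for 4 of the 10 genes, namely Cd3d, Cd3e, Cd3g and Cd4, and among the lowest 3 for 7. Rhy 2 was the lowest for Cd8a, Gzma and Gzmb, and DXM 2 for Foxp3. Control 1 was the highest for 5 of the 10 and among the highest 3 for 9. The T cell receptor list summed to 43.8 CPM in Rhy 1 and 68.6 CPM in control 3, against 109 to 187 CPM in the others. Cd79a, a B cell receptor gene, had 0.599 CPM in Rhy 1 and 3.40 CPM in control 3, against 27.6 to 55.8 CPM elsewhere, and Ms4a1, which encodes CD20, had 0 and 0.933 CPM, against 11.9 to 29.1 CPM.

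These same pieces differed in which T cell genes they held. In control 3, Cd4 was at 4.06 CPM, the lowest but Rhy 1, while Gzma and Gzmb were the highest of the series and Cd8a, at 6.15 CPM, was second to control 1. In Rhy 1, Cd4 was at 0.771 CPM, against 7.02 ± 1.23 CPM (SD, n = 3) in the model group, while Gzma, at 6.59 CPM, was close to model 1 and model 2. Control 3 and Rhy 1 were the 2 libraries in which Cd8a exceeded Cd4 per length, by 1.67-fold and 2.28-fold, against ratios of 0.137 to 0.695 in the other 10. With Rhy, 16 of 16 B cell genes were lower, at a median of -0.91 on the log2 scale, and 16 of 16 were lower at a median of -0.44 once control 3 and Rhy 1 were left out. The part of the B cell content in the T cell values was not tested. With DXM, 9 of 11 macrophage genes and 10 of 10 smooth muscle genes were higher, at medians of 1.08 and 0.68, and 7 of the macrophage genes were above the model group in every DXM library, as were 10.4% of all genes. Their part in the DXM values of the 10 genes was not tested. Of 8 mast cell genes tested, 6 were higher with DXM and 2 lower, at a median of 0.98, and 2 were above the model group in every DXM library. Mcpt1, a mast cell protease gene, was one of those lower, at -0.29 ± 0.96.

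By r of log2 CPM over 12 libraries with the mean of Cd3d, Cd3e and Cd3g, the 10 most alike genes were Gm23301 (0.886), 1810041H14Rik (0.848), Rinl (0.839), Lck (0.830), Pvr (0.827), 1700034H15Rik (0.815), Fyb (0.815), Amotl2 (0.811), Cd28 (0.810) and Gimap3 (0.806). Lck, Cd28 and Fyb are genes of T cell signalling. The median r over all genes was 0.01, and it was 0.57 over the 28 T cell receptor genes, 0.60 over the 13 cytotoxic genes, 0.53 over the plasma cell and the macrophage genes, 0.49 over the B cell genes and -0.02 over the smooth muscle genes. The 10 genes were named by this rank alone. With model 1 and model 2 averaged, 4931440P22Rik (r = 0.900) and Sh2d5 (r = 0.827) were among the first 10, while 1700034H15Rik and Gimap3 ranked 11 and 14. Within groups the named genes ranked from 55 (Pvr) to 623 (1700034H15Rik), with Lck at 460.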

How the data were processed

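RNA-Seq of colon pieces gave 12 libraries in 4 groups of 3, grouped by the treatment label. The deposited counts are whole reads per gene, which the authors did not normalize, and the FPKM values deposited by the authors divide them by gene length and library size. The submitters' processing notes name HISAT2 2.0.5, featureCounts 1.5.0-p3, DESeq2 1.16.1 and mm10. Whether counting used strand is not given in the sources used here, so overlapping and antisense genes are uncertain. Coordinates matched GENCODE M21 for 9 of the 10 genes.

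Counts were tested in R 4.3.3 with edgeR 4.0.16 (filterByExpr with a minimum count of 10, TMM, glmQLFit, glmQLFTest, two-sided, all 12 libraries in 1 fit). DESeq2 1.42.0 and limma 3.58.1 served for alternatives. The alternatives were other scalings, filters and pseudocounts, the groups compared alone, a replicate block, a Hoxb13 term, model 1 and model 2 as 1 library, and leaving out each library. Leaving out control 3 and Rhy 1 together, and the lists with model 1 and model 2 as 1 library, were added after the data were examined. Single values were also compared by exact two-sided permutation tests. Ratios add 0.5 to each count, and correlations use log2 CPM. On simulated counts of 16904 genes with 200 changed 4-fold, edgeR recovered 126, 117 and 126 in the comparisons of model, Rhy and DXM, with 5, 3 and 15 false calls. The simulated libraries were drawn independently, without near copies such as model 1 and model 2. The recovery therefore does not give the power for smaller folds or for genes with few reads.

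The 10 genes and the lists were chosen with earlier results of these data known. Named beside the 10 genes are 20 T cell, B cell and tissue genes fixed by name and the 10 genes most alike to the CD3 chains. Other genes were named after their values were seen. With 3 libraries a group, precision is limited by the spread between libraries, and the low read numbers of Foxp3 and Cd8b1 add counting error.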

Additional observations from a re-analysis of the deposited data

How the results depend on the processing

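The 10 genes had no adjusted p under 0.05 in any of the 508 alternative values of their log2 fold changes, and 476 of these kept the sign found with all libraries. DESeq2 gave the 10 genes no adjusted p for the model against the control, so its values there could not be called. Of the 30 gene and comparison pairs, 16 kept their sign throughout, and the changes of sign numbered 20 for the model against the control, 3 for Rhy and 9 for DXM. Gzma in the model against the control kept its sign in 9 of 17 alternatives, from -0.96 without model 3 to 0.50 without control 3.

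Adjusted calls over all genes, 0 in each comparison, became 46, 5 and 51 with DESeq2 in the order model against control, Rhy and DXM. They became 1 for the model against the control with genes of any count and with only the groups compared, and 2 for DXM with only the groups compared. With limma on log2(FPKM + 0.1) they were 2 for Rhy and 2 for DXM, and with the filter on mean FPKM 1 for DXM. Leaving out 1 library gave 0 to 1 for the model against the control (1 without model 3), 0 to 1 for Rhy (1 without model 3) and 0 for DXM.

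Unadjusted calls, 1626, 628 and 1300, were 866, 283 and 736 with model 1 and model 2 as 1 library. They were 888, 289 and 775 without model 1 and 901, 293 and 771 without model 2. They were 2811 for the model against the control without control 3, 1007 and 1066 for Rhy without model 3 and without Rhy 1, 537 for DXM without DXM 3, 972 for Rhy with genes of any count and 2514 for DXM with only the groups compared. With a replicate block they were 1820, 626 and 1244, with 0 adjusted calls. Libraries with the same number deviated together with correlations of -0.31 to 0.363 in 18 pairs, 6 of them over 0.1. Of 12 libraries, 5 agreed best with their own number. These values do not show a pairing by number and cannot exclude one.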
